A study of Mus musculus with 2 samples.

Results

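Transcripts of adult haemoglobin and of other erythroid genes were followed in monocytic myeloid-derived suppressor cells (M-MDSCs) raised from mouse bone marrow with or without CHBP, a cyclic peptide derived from erythropoietin (EPO). The genes were chosen by name from the deposited table of 34745 genes. They were the alpha globin genes Hba-a1 and Hba-a2, the beta globin genes Hbb-bs and Hbb-bt, and the erythroid genes Alas2, Klf1, Gata1, Epb42 and Ahsp. Of these 9 genes, 8 had a row in the table (4 globins and 4 others), and Ahsp was not analysed here. The choice was made with the reads and FPKM of both libraries known, so all of their values are a description and none of them was tested.

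Bone marrow cells of C57BL/6 mice aged 6 to 8 weeks were freed of red blood cells by lysis and kept in culture with 50 ng/ml of the myeloid growth factor GM-CSF over 7 days. CHBP- M-MDSCs received GM-CSF alone and CHBP+ M-MDSCs received GM-CSF and CHBP. The methods of the study give the CHBP dose as 20 μM, whereas its dose series is in nM and includes 20 nM. As strain, the label reads C57BL/6 in CHBP- and C57BL/7 in CHBP+ M-MDSC. M-MDSCs were sorted as CD11b+ Ly6G- Ly6C high cells with a stated purity of over 90%, and total RNA was sequenced as 1 library per condition. The counted reads summed to 16484504 in CHBP- and 16280466 in CHBP+ M-MDSC. There were no replicates, so intervals below are 95% intervals for counting error only, and an effect of CHBP and whatever else set the 2 libraries apart cannot be told apart. In bulk RNA, fewer cells of a type and less RNA per cell cannot be told apart either.

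Haemoglobin, the oxygen carrier of red blood cells, is built of alpha and beta globin chains that each hold a haem group. Erythroid precursors in bone marrow switch on the globin genes together with Alas2, which encodes the first enzyme of haem synthesis in erythroid cells, under transcription factors such as GATA1 and KLF1, and EPO drives the survival of these precursors. Lysis of red blood cells removes mature erythrocytes more readily than nucleated precursors, and haemoglobin RNA is a common passenger in RNA from marrow and blood.

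The members of each adult globin pair are so alike that most reads of their coding parts cannot be assigned to a gene. Over the coding parts of the reference transcripts (GENCODE M1, build NCBIM37, matched by gene identifier, where Hbb-bs and Hbb-bt are named Hbb-b1 and Hbb-b2), Hba-a1 and Hba-a2 differed at 1 of 429 bases and Hbb-bs and Hbb-bt at 1 of 444 bases. Neither difference changed the protein. The stretches below are read-length windows of 75 coding bases from the last exon of each gene, shown because they hold that only coding difference, in capitals at the 3′ end. The Hba-a1 window lies at chr11:32184269-32184343 (plus strand), that of Hba-a2 at chr11:32197086-32197160 (plus strand), that of Hbb-bs at chr7:110975206-110975280 (minus strand) and that of Hbb-bt at chr7:110961197-110961271 (minus strand), all on NCBIM37.
Hba-a1: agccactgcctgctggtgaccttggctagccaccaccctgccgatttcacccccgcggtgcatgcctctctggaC
Hba-a2: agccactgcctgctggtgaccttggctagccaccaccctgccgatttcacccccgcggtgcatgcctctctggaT
Hbb-bs: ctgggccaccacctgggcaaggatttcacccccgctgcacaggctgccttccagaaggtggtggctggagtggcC
Hbb-bt: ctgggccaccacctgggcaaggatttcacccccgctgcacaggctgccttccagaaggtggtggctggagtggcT

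Of the 625 windows of 75 bases in the longest transcript of Hba-a1, 389 (62.2%) also occurred in Hba-a2, and these were 81.0% of the 480 windows of Hba-a2. Of the 704 windows of Hbb-bs, 356 (50.6%) also occurred in Hbb-bt, and these were 56.6% of the 629 windows of Hbb-bt. Windows of the globins were shared with no other protein-coding gene, and Alas2, Klf1, Gata1 and Epb42 shared no window with another gene. How reads that match several places were counted is not given in the sources used here. The split of reads within a globin pair is therefore uncertain, whereas the sum over a pair does not depend on it as long as shared reads were kept.

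**Figure D1:**
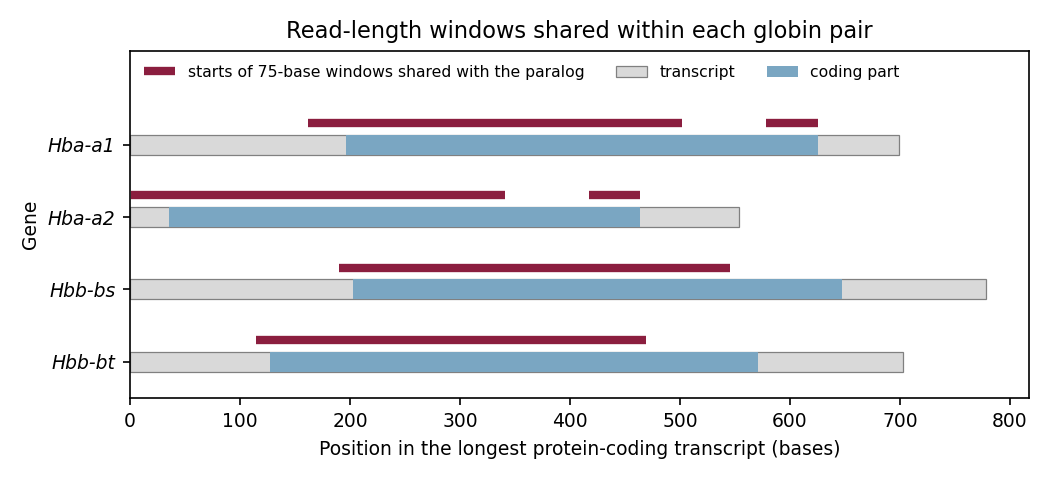
Map of the longest protein-coding transcript of the 4 globin genes (x axis, position in bases), with the coding part in blue and the start positions of 75-base windows shared with the paralog in red. The shared windows cover most of the coding part in each pair. Windows specific to Hbb-bs or Hbb-bt lie towards the transcript ends. In Hba-a1 and Hba-a2, some specific windows lie inside the coding part, between 2 runs of shared windows.

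The proximal promoters of the 4 globin genes are shown because these genes were all lower in CHBP+ M-MDSC. Each run is the 120 bases before the RefSeq start of the gene (GRCm38.p6), 5′ to 3′ on the strand of the gene. The deposited gene spans differ from the RefSeq starts. Those of Hba-a1 and Hbb-bs hold the whole run, and those of Hbb-bt and Hba-a2 a part of it. Capitals mark matches on either strand to CACCC (the core of sites of KLF family factors), to CCAAT, to GATAA (the core of sites of GATA factors) and to TATAA. The runs come from chr11:32283552-32283671 (Hba-a1, plus strand), chr11:32296372-32296491 (Hba-a2, plus strand), chr7:103827929-103828048 (Hbb-bs, minus strand) and chr7:103813924-103814043 (Hbb-bt, minus strand).
Hba-a1: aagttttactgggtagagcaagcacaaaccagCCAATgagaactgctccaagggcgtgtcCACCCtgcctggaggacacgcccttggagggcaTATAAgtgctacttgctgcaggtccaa
Hba-a2: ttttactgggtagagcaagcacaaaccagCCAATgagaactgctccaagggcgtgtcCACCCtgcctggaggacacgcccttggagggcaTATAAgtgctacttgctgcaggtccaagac
Hbb-bs: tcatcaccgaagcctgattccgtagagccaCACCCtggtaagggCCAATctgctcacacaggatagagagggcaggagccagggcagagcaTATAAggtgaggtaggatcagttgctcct
Hbb-bt: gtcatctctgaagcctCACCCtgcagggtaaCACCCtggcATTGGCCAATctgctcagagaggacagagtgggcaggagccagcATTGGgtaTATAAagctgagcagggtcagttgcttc

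Within 250 bases before the start, each of the 4 globin promoters held all 4 motifs. Hbb-bt had 3 matches to CACCC and 3 to CCAAT, whereas Hbb-bs had 1 of each. Among all 8 members, 7 held CACCC, 5 CCAAT, 7 GATAA and 6 TATAA. In 32851 RefSeq promoters of the same length, these letters occurred in 52.0%, 33.8%, 22.6% and 22.8%. Such matches are a description of the letters, since short motifs are common and binding was not measured.

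Adult haemoglobin RNA was lower in CHBP+ than in CHBP- M-MDSC for all 4 globin genes, and Hbb-bs stood apart from the other 3. Together the 4 genes took 29352 reads in CHBP- and 11860 in CHBP+ M-MDSC. That is 0.178% of counted reads in CHBP- (Clopper-Pearson interval 0.176% to 0.180%) and 0.0728% in CHBP+ (0.0715% to 0.0742%), a 2.44-fold lower share (interval 2.39 to 2.497). The non-globin members summed to 1344 and 931 reads, which was 1.43-fold lower (interval 1.31 to 1.55). Alas2 supplied 1160 and 800 of these reads, and the 3 members besides it summed to a 1.39-fold lower value (interval 1.10 to 1.75). Without Hbb-bs, the other 3 globins were 1.53-fold lower (interval 1.48 to 1.58), an interval that overlaps that of the non-globin members.

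Hbb-bs (ENSMUSG00000052305), the major adult beta globin gene, spans bases 103826534 to 103828096 of chromosome 7. In CHBP- M-MDSC it had 20238 reads (708 FPKM), and with CHBP 5989 (212 FPKM), where FPKM divide the reads by gene length and by the library total. Scaled to the library total it was 3.34-fold lower in CHBP+ M-MDSC (interval 3.24 to 3.44). Ordered by reads, it was gene 62 of the table in CHBP- and gene 393 in CHBP+ M-MDSC. Of the difference in CPM (reads scaled to a library total of 1000000) of the 4 globins together, Hbb-bs held 81.7%.

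Hbb-bt (ENSMUSG00000073940), the minor adult beta globin gene, lies 3′ of Hbb-bs in the same cluster, from 103812524 to 103813996. Its reads numbered 2431 (210 FPKM) in CHBP- and 1539 (134 FPKM) in CHBP+ M-MDSC, which was 1.56-fold lower (interval 1.46 to 1.66). The genes of the beta pair thus differed unequally, and Hbb-bs took 89.3% of their reads in CHBP- (interval 88.9% to 89.7%) and 79.6% in CHBP+ M-MDSC (78.6% to 80.5%). The ratio of Hbb-bs to Hbb-bt reads was 8.32 and 3.89. As a sum, less affected by the assignment of shared reads, the beta globins went from 22669 to 7528 reads and were 2.97-fold lower (interval 2.90 to 3.05).

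Hba-a1 (ENSMUSG00000069919) lies on chromosome 11 at 32283511 to 32284465. Its 4071 reads in CHBP- (207 FPKM) and 2678 in CHBP+ M-MDSC (138 FPKM) made it 1.501-fold lower (interval 1.43 to 1.58). Hba-a2 (ENSMUSG00000069917), from 32296489 to 32297298, had 2612 and 1654 reads, or 151 and 96.9 FPKM, and was 1.56-fold lower (interval 1.47 to 1.66). The alpha pair kept its proportions, with Hba-a1 at 60.9% of alpha reads in CHBP- (interval 59.7% to 62.1%) and 61.8% in CHBP+ M-MDSC (60.4% to 63.3%). Their sum was 6683 and 4332 reads, 1.52-fold lower (interval 1.47 to 1.58).

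Because beta globin reads were lower by more than alpha globin reads, the mix of globin reads differed between the libraries. Alpha globins made up 22.8% of the 4 genes' reads in CHBP- (interval 22.3% to 23.3%) and 36.5% in CHBP+ M-MDSC (35.7% to 37.4%). Hbb-bs alone made up 68.9% (68.4% to 69.5%) and 50.5% (49.6% to 51.4%).

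**Figure D2:**
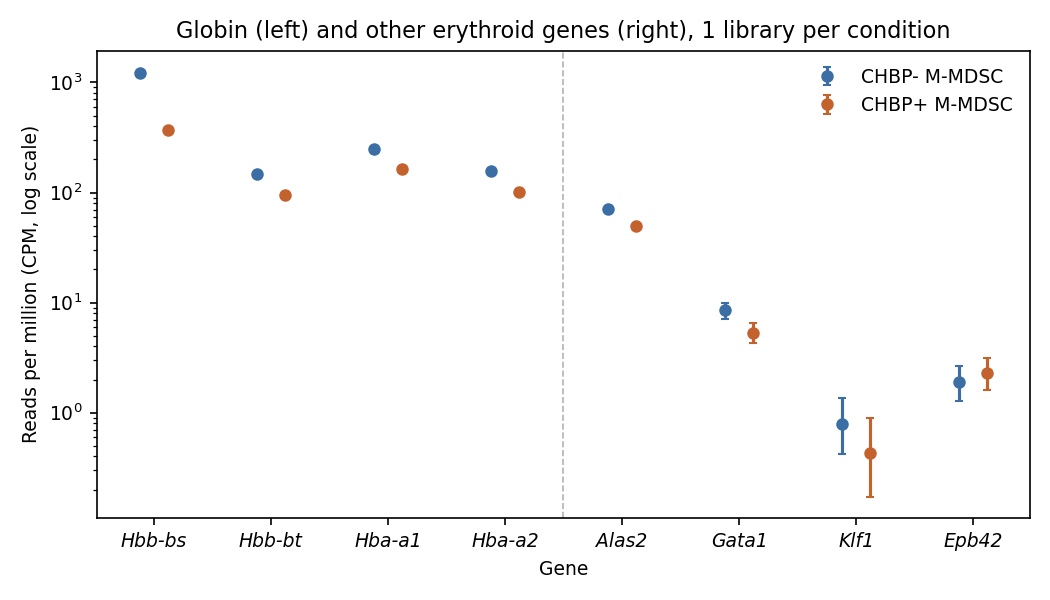
CPM (y axis, log scale) of the 4 globin genes and the 4 other erythroid genes in CHBP- (blue) and CHBP+ (orange) M-MDSC, with exact Poisson 95% intervals for counting error and 1 library per condition. Hbb-bs has the widest gap, from 1228 to 368 CPM, and the intervals of Klf1 and of Epb42 overlap between libraries.

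Alas2 (ENSMUSG00000025270), listed on chromosome X from 150547375 to 150570638, was the most abundant non-globin member. CHBP- M-MDSC held 1160 reads (22.0 FPKM) and CHBP+ M-MDSC 800 (15.4 FPKM), so that it was 1.43-fold lower (interval 1.31 to 1.57). This interval overlaps those of Hba-a1, Hba-a2 and Hbb-bt and lies apart from that of Hbb-bs. The span of Alas2 overlaps that of Apex2, which had 86 and 121 reads.

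The erythroid transcription factors among the members had few reads. Gata1 (ENSMUSG00000031162), the master regulator of erythroid and megakaryocytic genes, lies on chromosome X at 7959260 to 7978071 and had 140 reads (3.08 FPKM) in CHBP- M-MDSC. In CHBP+ M-MDSC it had 87 reads (1.94 FPKM), 1.59-fold lower with an interval from 1.21 to 2.101. Klf1 (ENSMUSG00000054191), an activator of adult beta globin, is listed on chromosome 8 from 84901928 to 84905295 and had 13 and 7 reads, or 0.514 and 0.280 FPKM. Its ratio of CHBP+ over CHBP- was 0.545 with an interval from 0.184 to 1.47, so that a difference was not detectable at this depth.

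Epb42 (ENSMUSG00000023216), which encodes protein 4.2 of the red cell membrane, is listed on chromosome 2 from 121017891 to 121037072. It was the only member with a ratio above 1, from 31 reads in CHBP- and 37 in CHBP+ M-MDSC. The ratio was 1.21 with an interval from 0.730 to 2.01, so its direction was not detectable at this depth.

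**Figure D3:**
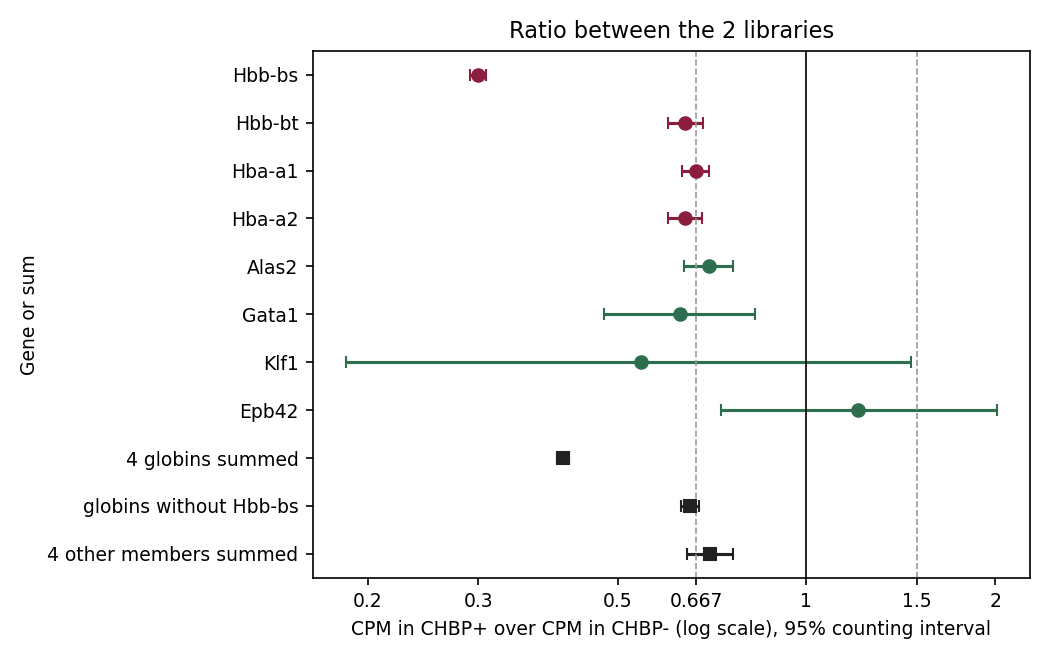
CPM of CHBP+ divided by CPM of CHBP- M-MDSC (x axis, log scale) for each member and for 3 sums, with exact 95% Clopper-Pearson counting intervals; dashed lines mark 1.5-fold in either direction. Hbb-bs at 0.2996 lies left of the other globins, which sit between 0.641 and 0.666, close to Alas2 at 0.698.

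For comparison with all genes, 1 was added to each FPKM and the log2 ratio of CHBP+ over CHBP- taken, a scale that shrinks the ratios of low genes. It was kept for the 10948 genes that reached 1 FPKM in either library. Of the 8 members, 6 passed this minimum, and Klf1 and Epb42 did not. The log2 ratios were -1.73 for Hbb-bs, -0.64 for Hbb-bt, -0.64 for Hba-a2, -0.58 for Hba-a1, -0.49 for Alas2 and -0.47 for Gata1. On this scale, 3 of them, Hbb-bs, Hbb-bt and Hba-a2, were at least 1.5-fold lower, beside 2.89% of all genes kept. None was at least 1.5-fold higher, beside 3.42%. Hba-a1 lay just short of that threshold and Gata1 further from it. As plain ratios of CPM, both were past it (1.501-fold and 1.59-fold lower). Of the 6 genes, only Hbb-bs had a counting interval wholly past 1.5-fold. The median of all genes kept was -0.03, and 12 genes, Hbb-bs included, had a log2 ratio at or below that of Hbb-bs.

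The globin transcripts are short, and the log2 ratio of all genes moved with transcript length. Across 10211 genes, rank correlation (Spearman's rho) of the ratio with the longest GENCODE M1 transcript was 0.676, a description over genes that share the 2 libraries. The longest transcripts were 554 bases for Hba-a2, 699 for Hba-a1, 703 for Hbb-bt and 778 for Hbb-bs, against 1902 for Gata1 and 2037 for Alas2. After removal of this trend and of that with GC content, a step added once the data had been seen, the log2 ratios were -1.41 for Hbb-bs, -0.31 for Hbb-bt, -0.24 for Hba-a2, -0.19 for Hba-a1, -0.33 for Alas2 and -0.28 for Gata1. Hbb-bs stayed past 1.5-fold, whereas Hbb-bt and Hba-a2 did not. The SD of all genes around the trend was 0.246, so Hba-a1 and Hba-a2 lay within 1 SD of it and Hbb-bt, Alas2 and Gata1 a little further out. The part of transcript length in the lower globin reads was not tested beyond this.

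**Figure D4:**
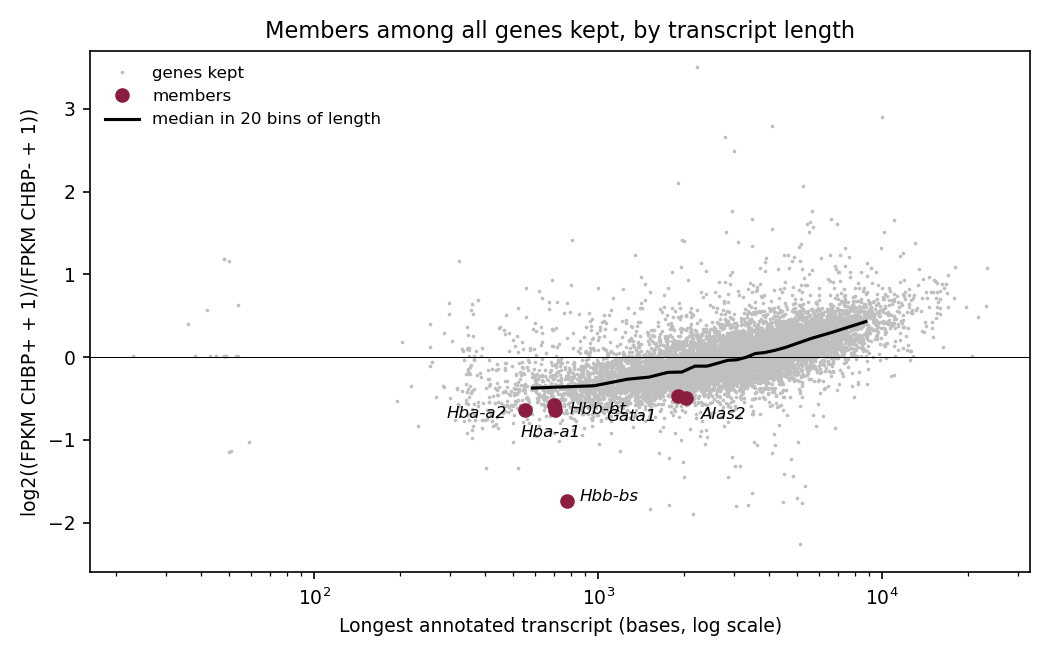
Log2 ratio of FPKM + 1 between CHBP+ and CHBP- M-MDSC (y axis) against the longest annotated transcript in bases (x axis, log scale) for genes kept (grey), with the median in 20 bins of length (line) and the members kept (red). Hba-a1, Hba-a2 and Hbb-bt lie a little below the line at their length, and Hbb-bs lies at -1.73.

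The FPKM themselves need care when genes are compared. The gene length implied by the reads and FPKM was 1734 bases for Hbb-bs, longer than its listed span of 1563 bases and equal to the summed length of its 3 annotated GENCODE M1 transcripts. It was 1193 bases for Hba-a1 and 1048 for Hba-a2, against listed spans of 955 and 810, and 703 for Hbb-bt, equal to its only transcript. Such a length lowers the FPKM of Hbb-bs relative to Hbb-bt without touching the ratio between the libraries. As CPM per kilobase of the longest transcript, the levels in CHBP- M-MDSC were 1578 for Hbb-bs, 353 for Hba-a1, 286 for Hba-a2, 210 for Hbb-bt, 34.5 for Alas2, 4.47 for Gata1, 0.514 for Klf1 and 0.457 for Epb42. In CHBP+ M-MDSC they were 473, 235, 183, 134, 24.1, 2.81, 0.280 and 0.552 in the same order of genes. The order was the same in both libraries except for Klf1 and Epb42, which exchanged places and whose counting intervals on CPM are wide.

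Reads of the globin clusters came almost entirely from the adult genes. In the alpha cluster, the embryonic gene Hba-x had 1 read in CHBP- and 0 in CHBP+ M-MDSC, and the theta globin genes Hbq1b and Hbq1a had 13 and 5 reads and 3 and 0 reads. In the beta cluster, the embryonic gene Hbb-y had 1 and 3 reads, and Hbb-bh0, Hbb-bh1, Hbb-bh2 and Hbb-bh3 had 0 in both. With 3 reads set as the limit for a count of 0, such genes would be at up to 0.182 CPM in CHBP- or 0.184 CPM in CHBP+ M-MDSC. The exact Poisson intervals used for levels reach higher for such a count, to 0.224 CPM in CHBP- and 0.227 CPM in CHBP+ M-MDSC. Of the 12 other globin genes looked up, 10 were matched, none reached 1 FPKM, and the distant relatives Mb, Cygb and Ngb had no reads.

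**Figure D5:**
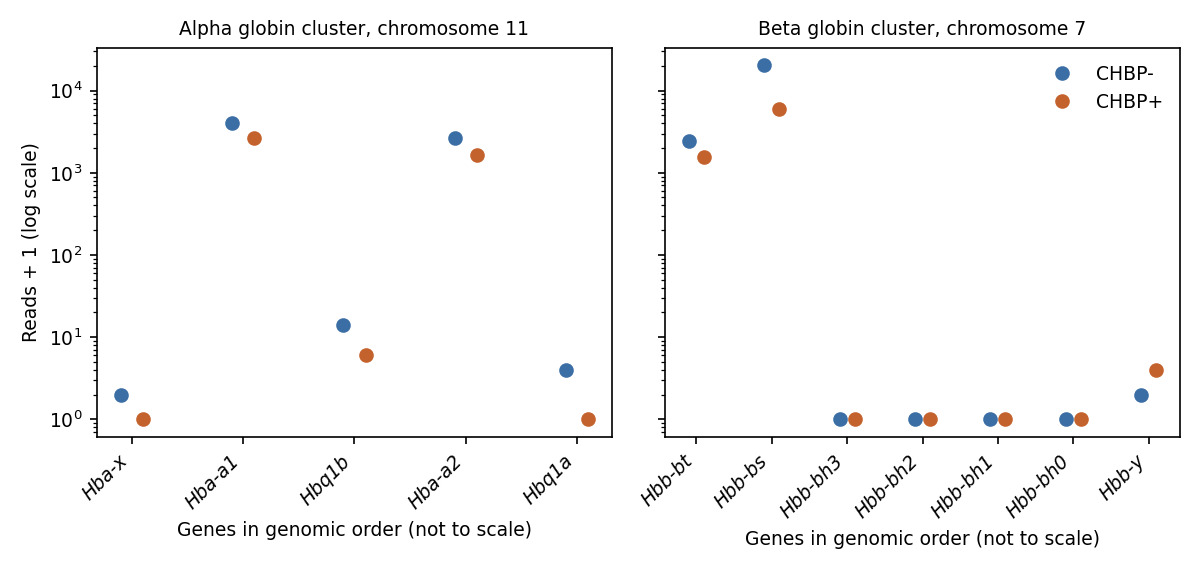
Reads + 1 (y axis, log scale) of each listed gene of the alpha and beta globin clusters, in genomic order on the x axis, for CHBP- (blue) and CHBP+ (orange) M-MDSC. Hba-a1, Hba-a2, Hbb-bs and Hbb-bt hold 1539 to 20238 reads, and every other gene of the clusters at most 13.

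The remaining enzymes of haem synthesis were measured well and differed little. All 8 of them were kept, 7 had a log2 ratio below 0, beside 53.7% of all genes kept, none was 1.5-fold apart, and their median was -0.18, or -0.06 with the trend in length and GC content removed. Alas1, the housekeeping counterpart of Alas2, had a log2 ratio of 0.02 from 12636 reads in CHBP- and 12644 in CHBP+ M-MDSC, although it overlaps another gene with reads. Cpox had 589 and 567 reads (-0.03), and Fech, which inserts iron into haem, had 675 and 629 reads (-0.08). Per kilobase of the longest transcript, Alas1 stood above Alas2 in both libraries, at 248 against 34.5 in CHBP- and 251 against 24.1 in CHBP+ M-MDSC.

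Genes that carry or store haem and iron, which myeloid cells also use, showed no 1.5-fold difference among the 21 kept of 22 matched. Of the 21, 14 were below 0, beside 53.7% of all genes kept, and 7 above. The median was -0.08, and 0.02 with the trend removed. The ferritin chains Fth1 and Ftl1, which store iron, were the most abundant, with 188373 and 136853 reads and 77989 and 56105 reads, or log2 ratios of -0.44 and -0.46. With the trend removed these were -0.12 and -0.09. The haem-degrading enzyme Hmox1 had 10821 and 10113 reads (-0.08) and the haem transporter Slc48a1 had 6941 and 6535 reads (-0.07).

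Among 16 transcription factors that act with GATA1 and KLF1 or before them, 14 were kept. Of these, 10 were below 0, beside 53.7% of all genes kept, and 4 above, and the median was -0.13. On the scale of FPKM + 1, only Nfe2, a factor of globin and platelet genes, was at least 1.5-fold lower, beside 2.89% of all genes kept. It had 3119 reads in CHBP- and 1991 in CHBP+ M-MDSC, and its log2 ratio of -0.59 became -0.43 with the trend removed. Myb had 3352 and 3205 reads (-0.05), Gata2 1910 and 1692 (-0.15), and Lyl1 962 and 738 (-0.35). The GATA1 partner Tal1 and the GATA1 target Gfi1b, named after their values were seen, had 655 and 389 reads (-0.55) and 116 and 63 reads (-0.54). As plain ratios of CPM, Tal1 was 1.66-fold lower (interval 1.46 to 1.89), Gfi1b 1.82-fold (1.33 to 2.51) and Nfe2 1.55-fold (1.46 to 1.64). Ikzf1 was past 1.5-fold the other way by CPM, with a ratio of 1.54 (interval 1.41 to 1.69), but not on the scale of FPKM + 1 (0.53). With the trend removed from the log2 ratios, Tal1 was at -0.63, past the 1.5-fold threshold, Gfi1b at -0.30 and Ikzf1 at 0.33.

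Red cell membrane and skeleton genes were mostly near or under detection, since 12 of 20 stayed under 1 FPKM in both libraries. Of the 8 kept, 4 were below 0, beside 53.7% of all genes kept, and 4 above, with a median of 0.00. Epb41, which encodes protein 4.1 and is also used outside red cells, was the only 1 at least 1.5-fold apart. It was higher, beside 3.42% of all genes kept, with 1406 reads in CHBP- and 3625 in CHBP+ M-MDSC. Its log2 ratio was 1.23 (0.96 with the trend removed). Slc4a1, which encodes band 3, the anion exchanger of red cells, had 188 and 175 reads (-0.06), and Rhag had 1 read in each library.

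Of 17 matched enzymes and maturation genes of erythroid cells, 11 were kept and 9 of these were below 0, beside 53.7% of all genes kept. The median of the 11 was -0.25, or -0.15 with the trend removed. At least 1.5-fold lower, beside 2.89% of all genes kept, was Bcl2l1, whose product Bcl-xL keeps erythroid precursors and many other cells alive. It had 893 reads in CHBP- and 358 in CHBP+ M-MDSC, or -0.96 on the log2 scale (-0.82 with the trend removed). Cd24a had 13748 and 11302 reads (-0.26), Cat 3986 and 4000 (0.02), Nudt4 2911 and 2701 (-0.09) and Bnip3l 2822 and 2676 (-0.06). Car1 and Pklr had no reads in either library. Epor, a chain of the receptor that CHBP is thought to bind, had 17 and 10 reads, a ratio of 0.596 with an interval from 0.244 to 1.38, too few to give a direction.

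The transferrin receptor gene Tfrc, a marker of erythroid precursors that dividing cells also use, had 1550 reads in CHBP- and 1891 in CHBP+ M-MDSC (0.28, and 0.07 with the trend removed). The 6 genes of the erythroid marker list together were at 120 CPM and 138 CPM, of which Tfrc held 94.0 and 116 CPM. In the 3 of them that were kept the median log2 ratio was -0.06, or -0.14 with the trend removed. The monocyte list was present in full, with Lyz2 at 203606 and 161382 reads, but the sorting marker gene Ly6c2 was lower at 4091 and 2411 reads (log2 ratio -0.73, and -0.41 with the trend removed). Itgam, which encodes the sorting marker CD11b, was higher, with 18653 and 27265 reads (0.56, and 0.42 with the trend removed) in 1 of its 2 overlapping rows and 8703 and 13147 reads (0.61, at least 1.5-fold) in the other. Ly6g had 46 and 44 reads. Summed CPM of other lineages were 609 and 536 for 8 megakaryocyte genes, 823 and 753 for 7 mast cell or basophil genes, 127 and 98.3 for 5 eosinophil genes, 289 and 246 for 6 neutrophil genes, 104 and 76.2 for 4 B cell genes and 8.86 and 7.49 for 5 T cell genes. In these lists, at least 1.5-fold lower by FPKM + 1 were Elane of neutrophils (-0.69), Mcpt8 of basophils (-0.61) and Cd79a of B cells (-0.77). Ms4a2 of mast cells (1.04) was at least 1.5-fold higher. With the trend removed, Elane was at -0.32, Mcpt8 at -0.32 and Cd79a at -0.51, no longer 1.5-fold lower, and Ms4a2 at 1.06. Summed monocyte genes, with both rows of Itgam counted, were at 15304 and 13624 CPM, of which Lyz2 alone held 12351 and 9913 CPM. Of the 8 monocyte rows, 4 had a log2 ratio below 0 and 4 above, with a median of -0.03. No gene of these lists was at 0 in both libraries, and all 5 T cell genes stayed under 1 FPKM. Mast cells, eosinophils and megakaryocytes also express Gata1, and their part in the reads of Gata1 was not tested.

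By the log2 ratio of CPM, the genes closest to Hbb-bs (-1.74) among 3544 other named genes with at least 1000 reads in CHBP- M-MDSC were Idi1 (-1.62), B3gnt2 (-1.92), Fkbp1a (-1.54), Tmem164 (-1.95) and Tmem9b (-1.97). Likeness here rests on 1 ratio between 2 libraries. Idi1 had 1182 reads in CHBP- and 379 in CHBP+ M-MDSC, and Fkbp1a had 3294 and 1115. B3gnt2 had 3143 and 820 reads, while genes that overlap it had 338 and 2728, so its count is uncertain. The members were left out of this search and no other globin reached 1000 reads, so no globin could appear. None of the 5 is in the erythroid lists.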

How the data were processed

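RNA of 2 libraries, 1 per condition, was analysed. The members and gene lists were chosen with earlier results of these data known. The authors trimmed adapters and poor bases, dropped short and ribosomal reads and deposited raw read counts per gene and FPKM. The deposited FPKM equal the count scaled to the library total and divided by a gene length, the same length in both libraries, which exceeded the longest GENCODE M1 transcript in 78.5% of 10750 genes with at least 50 reads. The methods name TopHat2, HT-seq, DESeq and mm9, whereas the submitters' processing notes name HISAT2 2.0.4, Cufflinks 2.1.1, Cuffdiff, mm10 and GRCm38, with no role given. The deposited spans of all 8 members overlap the RefSeq gene of that symbol on GRCm38, and the spans are given on that build. Sequences were read from GENCODE M1 (NCBIM37) by gene identifier and from the RefSeq promoter table (GRCm38.p6) by symbol, where all 8 members were matched, and the coding windows were checked against the NCBIM37 genome.

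CPM were computed from the counts. Ratios have exact Clopper-Pearson 95% intervals and levels exact Poisson intervals, for counting error only, because PCR copies are not independent molecules. No model across genes and no test was run, since 1 library per condition leaves no replicate spread. Named were all members, the 4 most abundant genes of each list (mean FPKM) with those at least 1.5-fold apart, and the 5 genes closest to Hbb-bs. Others are examples chosen after their values were seen. Some list genes are not reported here by name. Neutrophil, mast cell, eosinophil, megakaryocyte, T and B cell lists are given as sums. Alternatives were a pseudocount of 0.1, other minimum FPKM, CPM, TMM (edgeR 4.0.16), DESeq2 1.42.0 size factors, median centring, totals without globins, a fold of 2 and removal of length trends by a cubic polynomial. The trend removal and intervals were tested on simulated data. Python 3.11.15, numpy 2.4.6, pandas 2.3.3, scipy 1.17.1, matplotlib 3.10.9 and R 4.3.3 were used.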

Additional observations from a re-analysis of the deposited data

How the results depend on the processing

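No paired analysis was possible because each condition has 1 library, which also leaves no replicate to omit. The ratio of the summed globins stayed within its counting interval under TMM, DESeq2 size factors, median centring and totals without globin reads, and was 0.471 with the trend in the length implied by the FPKM removed and 0.523 with the trend in the longest transcript and GC content removed, the latter chosen after seeing the data. The ratio of the summed non-globin members was 0.781 with the latter. With the implied length, the log2 ratios of the globins were -1.55 for Hbb-bs, -0.39 for Hbb-bt, -0.37 for Hba-a1 and -0.41 for Hba-a2. No member changed direction under any alternative run. The genes at least 1.5-fold higher and lower (374 and 316) became 665 and 571 when the pseudocount was 0.1, 218 and 209 under a minimum of 5 FPKM, 85 and 46 at 2-fold, and 187 and 102 with the longest transcript and GC content. With CPM, 796 were higher and 464 lower, and with the implied length 312 were higher and 168 lower. The log2 ratio of Klf1, -0.24, was -0.69 with a pseudocount of 0.1. The trends were not removed for Klf1 and Epb42, which stayed under 1 FPKM. Klf1, Epb42 and Epor have too few reads for a direction.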
